A study of Chlorocebus aethiops vervet with 14 samples.

Results

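Receptors for glutamate, GABA and glycine were followed gene by gene in the lateral geniculate nucleus of the vervet monkey, through which the retina reaches the visual cortex. A gene was a member if a probe set of the rhesus array carried its symbol alone and the symbol began with the name of an ionotropic glutamate receptor (GRIA, GRIK, GRID, GRIN), was that of a metabotropic glutamate receptor (GRM), or named a GABA-A, GABA-B or glycine receptor subunit. By this rule 26 of the 14132 singly named genes were members, on 42 probe sets, and each was read on its brightest probe set. Of the 26, 25 are receptor subunits, while GRID2IP, which encodes the scaffold protein delphilin, matched through the first letters of its symbol only.

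Retinal axons release glutamate onto relay neurons, where AMPA and NMDA receptors open cation channels, kainate receptors add slower or presynaptic currents, and metabotropic receptors act through G proteins. GABA from local interneurons and from the thalamic reticular nucleus acts on GABA-A receptors, pentameric chloride channels that combine alpha, beta and other subunits. Glycine receptors are chloride channels of the same family, built of alpha subunits and the beta subunit that ties them to the scaffold protein gephyrin.

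Tissue came from normal adult male vervets, with no treatment, and was taken by laser capture after cresyl violet staining. The 4 groups of 3 arrays were cell bodies picked from the magnocellular layers (M neurons), cell bodies picked from the parvocellular layers (P neurons), and mixed tissue of either kind of layer taken whole (M layers, P layers), so the comparisons ask how the large-cell and small-cell relay pathways differ, and how captured neurons differ from the layer around them. Each group holds 3 individual animals, and the labels do not say whether an animal contributed to more than 1 group. The RNA was amplified through repeated rounds before hybridization, and vervet RNA met rhesus probes, so signals of different probe sets are not set against each other.

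The 12 arrays had median signals of 11.9 to 14.8 and correlated at 0.969 to 0.982 within groups and at 0.943 to 0.977 between groups. Their trimmed means lay between 59.6 and 89.6, from 68.8 upward in neurons and up to 73.7 in layers. No array was left out. A probe set was tested if its mean signal reached the median over all probe sets, which kept 26383 probe sets with mean signals of at least 12.6. Of the 26 genes, 12 passed this filter on their brightest probe set (GRIA1, GRIA4, GRIK1, GRIK2, GABRA2, GABRA3, GABRA4, GABRB1, GABRE, GLRA3, GLRB and GRID2IP) and 14 did not. Differences below are differences of log2(signal + 16), which understates the change of dim probe sets, with their SE and with p-values of limma adjusted over all 26383 probe sets; a gene is called at an adjusted p under 0.05. In such samples fewer cells of a type and less RNA per cell cannot be told apart.

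**Figure D1:**
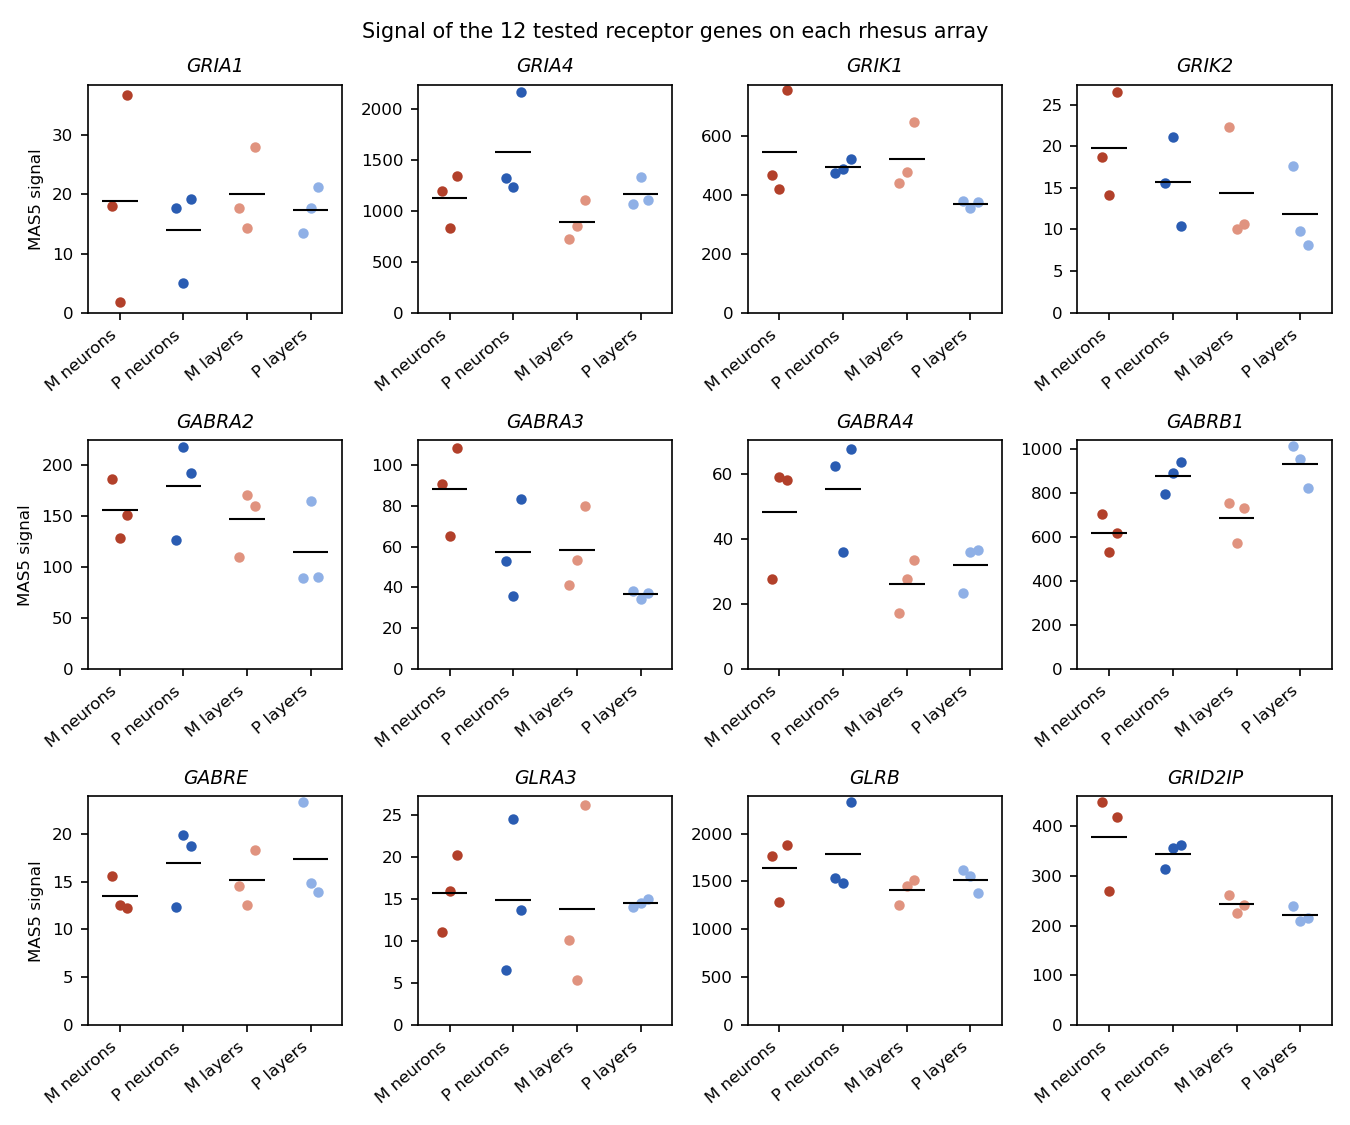
MAS5 signal (linear axis from 0, a separate scale for each gene) of the 12 tested genes on the 12 rhesus arrays; points are arrays, 3 in each group, and bars are group means. GABRB1 is lower on all 6 magnocellular arrays than on all 6 parvocellular arrays, and GRID2IP is higher on all 6 neuron arrays than on all 6 layer arrays.

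The GABA-A receptor beta 1 subunit, GABRB1, was the receptor gene that separated the magnocellular from the parvocellular captures. On its brightest probe set (MmugDNA.24091.1.S1_at) the M neurons gave 706, 533 and 617 and the P neurons 798, 892 and 944. The M layers gave 754, 574 and 733 and the P layers 1017, 956 and 824. All 6 magnocellular arrays lay below all 6 parvocellular arrays, a separation in either direction that 0.682% of the tested probe sets showed. The difference of M minus P was -0.50 ± 0.17 in neurons (adjusted p = 0.376), -0.44 ± 0.17 in layers (0.692) and -0.47 ± 0.12 over both captures (0.0716), so it was not called in any of them. With the replicate number of the labels as a block the value over both captures had an adjusted p of 0.0390, and 1.79% of the probe sets were called in that fit.

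A second, dimmer probe set of GABRB1 (MmunewRS.263.1.S1_at) showed the same order with a larger difference. Its signal was 60.8, 36.2 and 47.4 in M neurons against 117, 86.9 and 90.4 in P neurons. In layers it was 52.3, 38.2 and 52.3 in M against 110.3, 90.5 and 77.2 in P. Again the 6 magnocellular arrays all lay below the 6 parvocellular ones. The difference over both captures was -0.80 ± 0.14 (adjusted p = 0.00708), which was called, and corresponds to a level 1.75-fold higher in P than in M on the scale of signal + 16. It was also called under 20 of 21 alternatives, the exception being a block for the instrument station. In neurons alone it was -0.84 ± 0.20 (adjusted p = 0.111, and 0.0279 with the replicate block, under which 0.716% of the probe sets were called). In layers alone it was -0.77 ± 0.20 (adjusted p = 0.267). The third GABRB1 probe set, at signals of 0.784 to 12.4, was below the filter.

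**Figure D2:**
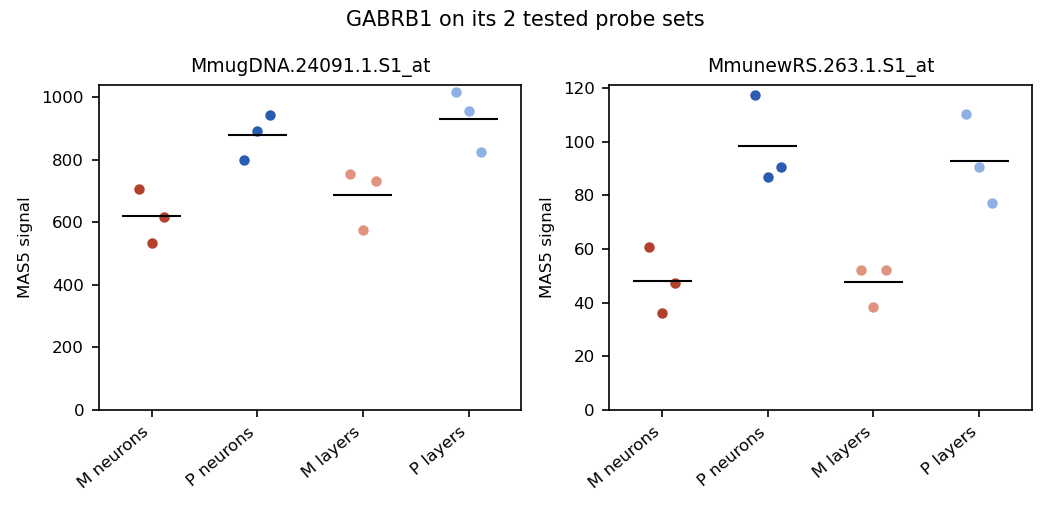
MAS5 signal (linear axes from 0) of GABRB1 on its 2 tested probe sets, by group; points are arrays, 3 in each group, and bars are group means. On both probe sets the M neurons and M layers lie below the P neurons and P layers, and neurons and layers of one type overlap.

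The arrays ran on 3 fluidics stations of the instrument, which follow the groups in part. On station 3, which held all 3 M neuron arrays and 1 P neuron array, the M minus P difference of GABRB1 was -0.37 on the brightest and -1.07 on the dimmer probe set. On station 5, with 1 M layer array and all 3 P layer arrays, it was -0.33 and -0.66. Each of these 4 within-station values rests on a single array on one side, and the adjusted p ranged from 0.516 to 1.00. With the station as a block the dimmer probe set was no longer called over both captures (-0.87 ± 0.21, adjusted p = 0.142).

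Markers of other cells also differed between M and P. GFAP, the astrocyte filament protein, was higher in M over both captures (0.81 ± 0.15, adjusted p = 0.0101, 1 of 9 tested astrocyte markers called). So was NEFH, a neurofilament protein abundant in thick axons (0.34 ± 0.07, adjusted p = 0.0219, 1 of 5 tested neuron markers). No marker of the oligodendrocyte, microglia, vascular or interneuron lists was called between M and P over both captures. In that comparison 0.83% of all tested probe sets were called. With the replicate block GAD1, an interneuron marker, was called higher in M (0.64, adjusted p = 0.0318), and with the station block neither GFAP (adjusted p = 0.393) nor NEFH (0.247) was called. Summed signals of the 10 annotated astrocyte markers were 6247 to 10420 in M neurons and 7431 to 8561 in P neurons, and 13293 to 14655 in M layers against 10641 to 12041 in P layers. The 5 annotated interneuron markers summed to 416 to 1053 in M neurons and 425 to 691 in P neurons, and to 1096 to 1354 in M layers against 608 to 705 in P layers. Such sums weigh most on the brightest marker, GLUL among the astrocyte and GAD1 among the interneuron markers. LHX6, of the interneuron list, had lower means in M, at 10.04 against 14.39 in neurons and 19.97 against 24.07 in layers. GAD2 had a lower mean in M layers (25.8 against 27.6). DLX1 (11.2 against 17.9) and NPY (78.7 against 81.5) had lower means in M neurons. In the other capture GAD2, DLX1 and NPY each had the higher mean in M. Some oligodendrocyte and astrocyte markers had lower values in M, though 0 of either list were called lower on the deposited signals without a block. The 6 tested oligodendrocyte and myelin markers had a median M minus P difference of -0.31 over both captures (-0.46 among neurons and -0.14 among layers), with UGT8, a myelin lipid enzyme, at -0.34 ± 0.12 (adjusted p = 0.262, and called after either scaling). CNP, of the same myelin list, had higher means in M, at 4616 against 4372 in neurons and 4667 against 4231 in layers. The 9 tested astrocyte markers had a median of 0.28 over both captures. AGT, one of that list, was at -0.94 ± 0.24 over both captures (adjusted p = 0.0688), and it was called with the replicate block (0.000243) and with the station block (0.00622). Its mean signals were 54.8 in M neurons, 148 in P neurons, 131 in M layers and 218 in P layers. The part of any of these cells in the GABRB1 difference was not tested.

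Beyond GABRB1, no receptor gene was called between M and P on any of its tested probe sets. Of the 12 genes read on their brightest probe set, 0 were called in neurons (3 at an unadjusted p under 0.05), 0 in layers (2) and 0 over both captures (3), where the shares of all tested probe sets called were 0.296%, 0.159% and 0.83%. Their median differences of M minus P were -0.02 (neurons), 0.00 (layers) and 0.04 (both captures), beside 0.01, 0.05 and 0.03 over all tested probe sets. In neurons 1 of the 12 (GABRB1) had groups that did not overlap, and in layers 3 did (GABRB1, GABRA3 and GRIK1), where 11.4% and 11.9% of all tested probe sets did.

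**Figure D3:**
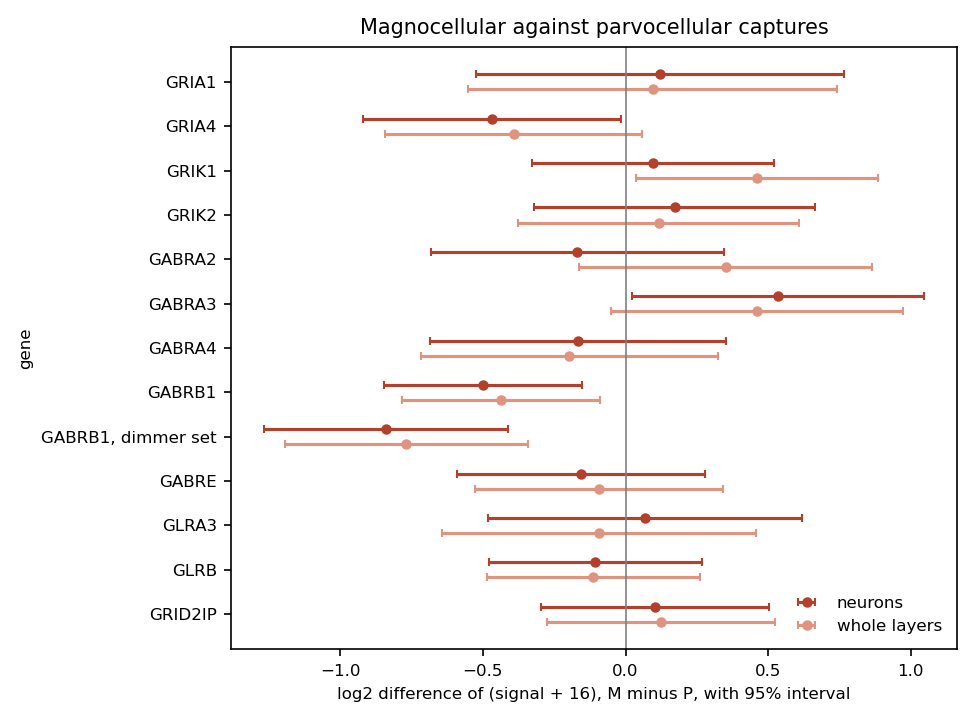
Difference of log2(signal + 16) of M minus P with its 95% confidence interval, in neurons (dark points) and whole layers (light points), for the 12 tested genes on their brightest probe set and for the dimmer GABRB1 probe set. The intervals of GABRB1 lie below 0 in both captures on both probe sets, and those of most other genes include 0.

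Among the AMPA receptor subunits, GRIA1 and GRIA4 were measured. GRIA4, a subunit with fast kinetics, gave 1192, 828 and 1344 in M neurons and 1325, 1236 and 2167 in P neurons. In layers it gave 723, 854 and 1108 in M and 1065, 1334 and 1106 in P. The P arrays tended to the higher values, but the groups overlapped in both captures. Over both captures the difference was -0.43 ± 0.15 (adjusted p = 0.283), and it was called after quantile normalization (-0.48, adjusted p = 0.0364) or after scaling the arrays to one trimmed mean (-0.47, adjusted p = 0.0434). A dimmer GRIA4 probe set (MmugDNA.20418.1.S1_at) showed no such order, at -0.02 ± 0.13 over both captures with a 95% interval of -0.30 to 0.26.

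GRIA1, the subunit best known from hippocampal plasticity in rodents, was dim and scattered, at 1.89 to 36.8 over the 12 arrays. Its residual SD on the log2 scale was 0.47, larger than that of 95.2% of the tested probe sets. The M minus P difference was 0.11 over both captures, with a 95% interval of -0.35 to 0.57. The other tested GRIA1 probe set gave 0.35 ± 0.20 (adjusted p = 0.627).

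The kainate receptor subunit GRIK1 separated M from P in whole layers, and was not called. Its signals were 441, 477 and 647 in M layers and 379, 354 and 376 in P layers, so the layer groups did not overlap. In neurons they were 467, 418 and 754 in M and 472, 488 and 521 in P, and these overlapped. The difference was 0.46 ± 0.20 in layers (adjusted p = 0.821) and 0.10 ± 0.20 in neurons (adjusted p = 0.970). The interaction of layer type with capture was -0.36 (adjusted p = 1.00). GRIK2, the other kainate subunit tested, lay at 8.14 to 26.5, and its M minus P difference over both captures was 0.14, with a 95% interval of -0.20 to 0.49.

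Of the delta receptors only GRID1 had a probe set, at 2.70 to 15.95 and below the filter. No NMDA receptor subunit reached the filter. GRIN1, the subunit that all NMDA receptors need, was at 0.680 to 15.2 on its probe set. The regulatory subunits GRIN2C, GRIN3A and GRIN3B were at 0.488 to 18.2, 0.414 to 10.1 and 2.48 to 26.1. The metabotropic receptor GRM7, a presynaptic inhibitor of release, was at 0.300 to 7.32. None of these genes was called when all probe sets were tested without the filter. Such low signals limit what can be detected, and they do not show that the genes were silent in the vervet.

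Among the GABA-A alpha subunits, which set much of the kinetics and drug response of the receptor, GABRA3 ran opposite to GABRB1. Its signals were 90.8, 65.1 and 108 in M neurons and 52.9, 35.6 and 83.6 in P neurons. The layers gave 41.2, 53.3 and 79.9 in M and 38.3, 34.3 and 37.3 in P, with no overlap between the layer groups. Over both captures the difference was 0.50 ± 0.17 (adjusted p = 0.264), in neurons 0.54 ± 0.24 (adjusted p = 0.641) and in layers 0.46 ± 0.24 (adjusted p = 0.903).

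GABRA2 was at 186, 129 and 151 in M neurons and at 127, 217 and 192 in P neurons. Its layers were at 110.0, 171 and 160 in M and at 88.8, 164 and 89.5 in P. All groups overlapped between M and P, and the difference over both captures was 0.09 with a 95% interval of -0.27 to 0.46. For GABRA4, the alpha subunit that pairs with delta subunits in the extrasynaptic receptors of thalamic relay neurons in rodents, the M minus P difference was -0.18, with a 95% interval of -0.55 to 0.19.

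The remaining GABA-A genes were dim. GABRE, the epsilon subunit, lay at 12.3 to 23.4, and its M minus P difference over both captures was -0.12 with a 95% interval of -0.43 to 0.18. Below the filter were GABRG3 (gamma 3, 1.70 to 15.3), GABRP (pi, 1.52 to 20.0), GABRQ (theta, 2.17 to 21.2) and the rho subunits best known from the retina, GABRR1 (1.48 to 9.35), GABRR2 (0.934 to 13.3) and GABRR3 (0.367 to 7.29). When all probe sets were tested without the filter, none of the 14 dim genes was called in any of the 6 differences. The smallest limma p-value among them was that of GLRA2, a glycine receptor alpha subunit, with an adjusted p of 0.434 in M against P over both captures (-0.48 ± 0.17).

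The glycine receptor beta subunit, GLRB, had 5 tested probe sets and did not differ detectably between M and P on any. On the brightest (MmugDNA.36465.1.S1_s_at) the M neurons gave 1762, 1288 and 1882 and the P neurons 1539, 1484 and 2335. The M layers gave 1250, 1453 and 1515 and the P layers 1619, 1558 and 1384. The difference of M minus P over both captures was -0.11, with a 95% interval of -0.37 to 0.15. Of the alpha subunits, GLRA3 lay at 5.33 to 26.2 with a difference of -0.01 (95% interval -0.40 to 0.38), and GLRA1 and GLRA2 lay below the filter at 0.917 to 10.2 and 0.654 to 25.5.

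Captured neurons were next compared with whole layers. Over both layer types GABRA4 and GRID2IP were called, both higher in neurons, that is 2 of 12 genes (16.7%, 4 at an unadjusted p under 0.05), where 24.1% of all tested probe sets were called in either direction. Within M 0 of the 12 were called (2 at an unadjusted p under 0.05), and within P 0 (3), where 10.7% and 10.2% of the probe sets were. The interaction of layer type with capture was called for 0% of the probe sets, with 742 of them at an unadjusted p under 0.05 and 0 of the 12 receptor genes among these. The median difference of neurons minus layers was 0.22 over the 12 genes and 0.13 over all tested probe sets. Quantile normalization moved this background median to 0.01 and trimmed mean scaling to -0.05, so that small positive differences of neurons minus layers depend on the scaling.

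GRID2IP, whose protein binds the delta 2 glutamate receptor in mouse cerebellum, was at 448, 270.4 and 418 in M neurons and at 314, 357 and 362 in P neurons. The layers gave 262, 225 and 242 in M and 240.3, 209 and 216 in P. All 6 neuron arrays lay above all 6 layer arrays, as they lay apart for 10.6% of all tested probe sets. The difference was 0.59 ± 0.14 (adjusted p = 0.00337). Within M it was 0.58 ± 0.19 (adjusted p = 0.0592, and 0.0404 with the replicate block) and within P 0.60 ± 0.19 (adjusted p = 0.0521, and 0.0350 with the replicate block). After trimmed mean scaling the value over both was 0.34 (adjusted p = 0.0358), and after quantile normalization 0.30 (adjusted p = 0.0620).

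GABRA4 gave 27.5, 59.0 and 58.2 in M neurons and 62.6, 36.1 and 67.8 in P neurons. Its layers gave 17.1, 27.7 and 33.4 in M and 23.4, 35.8 and 36.6 in P. M neuron replicate 1 and P neuron replicate 2 lay within the range of the layer arrays. The difference was 0.57 ± 0.18 (adjusted p = 0.0221). The call was lost without M neuron replicate 2 or 3, P neuron replicate 1 or 3, M layer replicate 1 or P layer replicate 1 (adjusted p = 0.05002 to 0.0664). It was also lost after quantile normalization (0.48, adjusted p = 0.0675) and trimmed mean scaling (0.40, adjusted p = 0.124).

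For GLRB all tested probe sets had positive differences of neurons minus layers on the deposited signals, but not all were called. The brightest gave 0.21 ± 0.13 (adjusted p = 0.263) and turned to -0.05 after either scaling. The dimmest tested, MmugDNA.36465.1.S1_at, gave 0.32 ± 0.14 (adjusted p = 0.111). The other tested GLRB probe sets gave 0.54 ± 0.15 (MmugDNA.15512.1.S1_s_at, adjusted p = 0.0128), 0.45 ± 0.15 (MmugDNA.15512.1.S1_at, 0.0326) and 0.55 ± 0.16 (MmugDNA.37125.1.S1_at, 0.0174), all called higher in neurons. After trimmed mean scaling these differences were 0.28, 0.21 and 0.32, and none was called. With the station block they were 0.84 ± 0.35, 0.81 ± 0.35 and 0.91 ± 0.37, and none was called (adjusted p = 0.176 to 0.202). With 1 array left out, MmugDNA.15512.1.S1_at was not called where that array was M neuron replicate 3, P neuron replicate 2 or 3, M layer replicate 1, or P layer replicate 1 or 3 (adjusted p = 0.0541 to 0.0940), and MmugDNA.37125.1.S1_at where it was P neuron replicate 3, P layer replicate 1 or P layer replicate 3 (0.0559 to 0.0564). Probe sets of 1 gene are not replicates of each other.

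GRIA4 was likewise called in neurons against layers on its dimmer probe set. That probe set gave 34.9, 31.0 and 40.7 in M neurons, 31.3, 38.2 and 35.2 in P neurons, 15.1, 22.4 and 24.5 in M layers, and 19.3, 22.6 and 23.5 in P layers. All 6 neuron arrays were above all 6 layer arrays, where 10.6% of all tested probe sets did not overlap in either direction. The difference was 0.46 ± 0.13 (adjusted p = 0.0167), where 24.1% of the probe sets were called. It was 0.40 after quantile normalization (adjusted p = 0.0185) and 0.30 after trimmed mean scaling (adjusted p = 0.0819), and without the signal filter its adjusted p was 0.0503. With the station block it was not called (0.72, adjusted p = 0.214). The brightest GRIA4 probe set gave 0.35 ± 0.15 (adjusted p = 0.105), and it was called with the replicate block (0.0428) and without M neuron replicate 2 (0.45, 0.0310).

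No other gene was called between neurons and layers on its brightest probe set in the fit of the deposited signals across all 26383 probe sets without a block. GABRA3 gave 0.46 ± 0.17 (adjusted p = 0.0576, 0.0187 with the replicate block and 0.0399 with a mean signal of at least 50). Its adjusted p was 0.0274, 0.0209 and 0.0240 without M neuron replicate 2, P neuron replicate 2 and M layer replicate 3. GABRA2 gave 0.34 ± 0.17 (adjusted p = 0.174), of which the difference within P was 0.60 ± 0.25 (adjusted p = 0.132). GRIK1 and GRIK2 gave 0.22 ± 0.14 and 0.22 ± 0.17. GRIA1, GABRE and GLRA3 gave -0.17, -0.05 and 0.06, with 95% intervals of -0.63 to 0.28, -0.35 to 0.26 and -0.33 to 0.45. GABRB1 was at -0.11 ± 0.12 (adjusted p = 0.532) as deposited, and was called lower in neurons after quantile normalization (-0.41, adjusted p = 0.00862) and after trimmed mean scaling (-0.37, adjusted p = 0.0157).

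**Figure D4:**
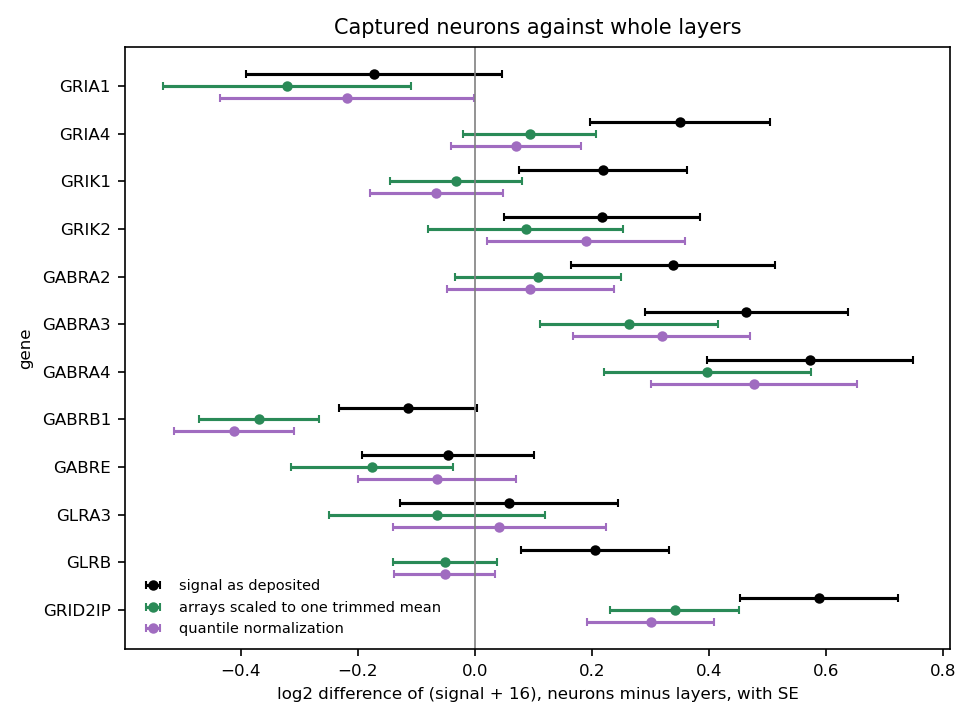
Difference of log2(signal + 16) of neurons minus layers over both layer types, with its SE, for the 12 tested genes on the deposited signals (black), after scaling each array to one trimmed mean (green) and after quantile normalization (purple). Both scalings move most genes towards lower values; GABRA4 and GRID2IP stay above 0, GABRB1 moves further below 0, GRIK1 and GLRB change sign under both, and GLRA3 does so after trimmed mean scaling.

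The cell types in the captures moved in the same comparison. Over both layer types 7 of 9 tested astrocyte markers, 3 of 6 oligodendrocyte and myelin markers, 3 of 9 microglia markers and 4 of 6 vascular markers were lower in neurons, 3 of 5 neuron markers were higher, and 0 of 5 interneuron markers were called. Oligodendrocyte and myelin markers summed to 9610 to 12677 in M neurons, 11125 to 11888 in P neurons, 12823 to 13844 in M layers and 12828 to 14419 in P layers. Summed vascular markers were 507 to 675 in M neurons, 554 to 741 in P neurons, 848 to 1333 in M layers and 963 to 1166 in P layers. Microglia markers summed to 1276 to 1930 in M neurons, 1324 to 1569 in P neurons, 1222 to 1645 in M layers and 1136 to 1401 in P layers. CD68, the brightest of them, averaged 1357 in M neurons, 1188 in P neurons, 1112 in M layers and 922 in P layers. It ran against the 3 microglia markers called lower in neurons. Neuron markers summed to 24794 to 27291 in M neurons, 21296 to 24685 in P neurons, 19990 to 23616 in M layers and 18327 to 21027 in P layers. These sums weigh most on the brightest marker of each list, MBP, SLC2A1, CD68 and NEFH in turn. None of these markers was at 0 on all arrays, and glial markers were present in the neuron captures; their part in the receptor differences was not tested. Within M, and within P, no station held both neurons and layers, so capture and station cannot be told apart there. With the station as a block, GABRA4 (0.66 ± 0.40, adjusted p = 0.370) and GRID2IP (0.71 ± 0.33, 0.235) were not called over both layer types. Their differences were larger than without the block (0.57 ± 0.18 and 0.59 ± 0.14), and so were the SE. In that fit 0 of the 19 tested receptor probe sets were called, where 2.37% of all tested probe sets were. Neurons and layers are linked there only through station 4, which held P neuron replicates 2 and 3 and M layer replicates 1 and 2. The same limit holds for neurons against layers with the station block in the related lists below.

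Deviations from the group means, over the 12 arrays, ran together for several members. They correlated at 0.92 between GLRB and GRIA4, at 0.91 between GABRA3 and GRIA4 and at 0.87 between GABRA3 and GLRB. The points share the arrays, and with the mean over all tested probe sets of an array the deviation of GRIA4 correlated at 0.81 and that of GLRB at 0.77.

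Proteins that anchor or modify glutamate receptors were compared in the same way. Of 42 genes listed, 26 had a singly named probe set and 20 were tested, and between M and P 0 were called (GSG1L, an AMPA receptor auxiliary subunit, 0.35 ± 0.14, adjusted p = 0.337; NPTX2, a pentraxin that clusters AMPA receptors, -0.27 ± 0.11, 0.382). After either scaling NPTX2 was called lower in M. In neurons against layers GSG1L (0.64 ± 0.14), LRRTM1, a synaptic adhesion protein (0.90 ± 0.24), and HOMER1, a scaffold of metabotropic receptors (0.46 ± 0.15), were higher in neurons and DLG1, a membrane-associated scaffold (-0.47 ± 0.13), was lower, 4 of 20 genes where 24.1% of all probe sets were called in either direction. The list's median was 0.18 beside 0.13 over all probe sets. After either scaling GSG1L alone was still called higher, and DLG1 was called lower together with DLGAP4 and, after trimmed mean scaling, CNIH2. With the station block LRRTM1 alone was called, higher in neurons.

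Of 25 genes for scaffolds and auxiliary proteins of GABA and glycine receptors, 18 were annotated and 15 tested. Between M and P 0 were called (TRAK2, a kinesin adaptor, 0.44 ± 0.14, adjusted p = 0.178; KCTD8, an auxiliary subunit of GABA-B receptors, -0.45 ± 0.18, 0.361). In neurons against layers 5 were higher in neurons, namely RDX (0.53 ± 0.12), which anchors receptors to actin, TRAK2 (0.50 ± 0.14), GPHN (0.39 ± 0.13), which encodes gephyrin, GABARAP (0.37 ± 0.12), a GABA-A receptor trafficking protein, and KCTD8 (0.53 ± 0.18). PLCL1, a phospholipase-like protein that binds GABA-A receptor beta subunits, was lower (-1.03 ± 0.15, adjusted p = 8.34e-05), and so was the adhesion protein NLGN4X (-0.45 ± 0.13). PLCL1 gave 57.2, 21.3 and 34.4 in M neurons, 55.3, 53.6 and 67.3 in P neurons, 107, 112 and 88.1 in M layers and 124, 121 and 114 in P layers. All 6 neuron arrays lay below all 6 layer arrays, where 10.6% of all tested probe sets did not overlap in either direction. The list's median was 0.22. The 5 higher genes became 0 after quantile normalization and 1 (RDX) after trimmed mean scaling, while PLCL1 and NLGN4X were called lower under both. With the station block 0 of the 15 were called. The 7 of 15 called stand beside the 24.1% of all probe sets.

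Among 33 genes of transmitter synthesis, uptake and vesicular loading, 23 were annotated and 16 tested. GLDC, a subunit of the glycine cleavage enzyme, was called higher in M over both captures (0.70 ± 0.17, adjusted p = 0.0488), at signals of 23.4, 23.6 and 31.7 in M neurons, 12.6, 13.2 and 2.64 in P neurons, 26.8, 24.2 and 25.4 in M layers and 14.99, 13.6 and 3.90 in P layers. All 6 M arrays lay above all 6 P arrays, a separation in either direction that 0.682% of the tested probe sets showed. The call was lost without any 1 of the 12 arrays (adjusted p = 0.0597 to 0.150). GAD1, which makes GABA, was at 0.64 ± 0.20 (adjusted p = 0.196, and 0.0318 with the replicate block). In neurons against layers SLC12A5, the neuronal chloride extruder (0.50 ± 0.13), GLS2, a glutaminase (0.49 ± 0.16), and ALDH5A1, a GABA-degrading enzyme (0.41 ± 0.13), were higher, and none of them was called after either scaling. The glial glutamate transporters SLC1A3 (-1.09 ± 0.13) and SLC1A2 (-0.79 ± 0.14) and glutamine synthetase, GLUL (-0.45 ± 0.10), were lower in neurons, also after either scaling. With the station block SLC1A3 alone was called. The 6 of 16 tested genes called compare with 24.1% of all probe sets. SLC1A3, SLC1A2 and GLUL are also in the astrocyte list, and the median of the transmitter list was 0.00.

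RNA of 2 magnocellular captures was also hybridized to the human HG-U133 Plus 2.0 array, which names receptor genes that the rhesus annotation used here does not. The titles call these captures layers and the source names call them neuronal cell bodies, while the instrument records carry the codes MN1 and MN2, the same codes as M neuron replicates 1 and 2 on the rhesus array. The sources conflict, so the kind of capture is not settled, and the values are given without a test. In all, 45 receptor genes had a singly named human probe set, 24 of them members on the rhesus array and 21 not. The GABA-A subunit GABRB2, a beta subunit abundant in the rodent thalamus, gave 7705 and 7051 on the 2 arrays. The GABA-B subunits gave 4549 and 4851 (GABBR2) and 344 and 247 (GABBR1). NMDA receptor signals were 2366 and 2175 for GRIN2A and 333 and 149 for GRIN2B. The AMPA subunits GRIA2 and GRIA3 gave 794 and 498, and 416 and 396. Together with GABRB1 (383 and 302), GABRA2 (309 and 134), GLRB (310.3 and 149) and GRIK2 (173 and 150), these were the 11 of 45 genes above 100 on both arrays, where 9.52% of all human probe sets were; the genes were read on their brightest probe set, which the share over all probe sets is not. GRIA4 read 31.1 and 36.0 there and GRIN1 read 21.7 and 4.84, and the metabotropic receptors GRM2 to GRM8 did not exceed 93.3 on either array.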

How the data were processed

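The deposited values are the authors' linear MAS5 signal intensity of each probe set, per the submitters' processing notes; version, scaling target and detection calls are not stated in the labels or files. Gene names came from the platform annotation: 24956 of 52766 non-control rhesus probe sets had 1 symbol, 361 several and 27449 none. Intensities were analysed as log2(signal + 16) with limma 3.58.1 in R 4.3.3 (4 group means over 12 arrays, eBayes with an intensity trend, 8 residual and 11.7 prior degrees of freedom, two-sided, Benjamini-Hochberg adjustment), after the filter on mean signal. With 3 arrays a group, array number limits precision. The fit was run on simulated data with independent noise and known changes in M neurons. These data held no pairing, station or scaling effect, so they cannot show how the fit handles those. There were 7 comparisons: 3 of M against P, 3 of neurons against layers, and the interaction. Named were the receptor genes called in any comparison, those with the 2 smallest p-values of each receptor class, the brightest of each class and all genes below the filter, and from related lists the called genes and the 2 with the smallest p-values. Members and lists were chosen with earlier results of these data known. Same-numbered arrays deviated together (r = 0.145 to 0.259 between M and P in layers, 0.180 to 0.211 in neurons, 0.136 to 0.194 between neurons and layers in M, 0.0997 to 0.157 in P), so the number was taken to pair M with P, and neurons with layers in M, but not in P. All 12 arrays nevertheless correlated best, averaged over the other groups, with arrays of their own number. The fit reported first carried no block and so left this pairing out. The replicate block, one of the alternatives, covered all 4 groups, so its values within P also treat the number as a pairing. Alternatives varied the pseudocount, filter, scaling, variance model, arrays fitted, blocks and probe set.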

Additional observations from a re-analysis of the deposited data

How the results depend on the processing

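Over 41 single-gene results and 935 alternative values, 847 kept their direction and side of the threshold, 35 lost and 30 gained a call, and 23 changed sign. The count of receptor genes called between M and P over both captures, 0 as reported, was 2 after quantile normalization and 2 after trimmed mean scaling (GABRB1 and GRIA4), and 1 with the replicate block or with the mean over probe sets (GABRB1). These counts include the scaffold gene GRID2IP. For neurons against layers in M the count of 0 became 1 (GRID2IP) with a mean signal of at least 50 or the replicate block. With an array left out it was 0 to 1 (GABRA4 or GRID2IP). In P it became 1 (GRID2IP) with a mean signal of at least 50 or with only the groups compared. It was also 1 (GRID2IP) with the mean over probe sets or the replicate block. With an array left out it was 0 to 1 (GRID2IP or GABRA2). Over both layer types the count of 2 became 1 without the filter (GRID2IP) and 1 after quantile normalization (GABRB1, lower). It was 4 with the mean over probe sets, 4 with the replicate block (adding GABRA3 and GRIA4) and 0 with the station block. With an array left out it was 1 to 3. With the replicate block no other call of a receptor gene on its brightest probe set changed.

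Sign changes occurred in values that were not called. In M against P over both captures the station block gave 0.052 for GABRE, 0.48 for GLRA3 and 0.037 for GLRB, the mean over probe sets gave 0.019 for GLRB, and leaving out an array gave -0.014 to 0.22 for GABRA2, -0.15 to 0.10 for GLRA3 and -0.075 to 0.32 for GRIA1. In neurons against layers over both layer types the station block gave 0.12 for GABRB1 and 0.31 for GABRE, trimmed mean scaling gave -0.064 for GLRA3, -0.052 for GLRB and -0.032 for GRIK1, quantile normalization gave -0.052 for GLRB and -0.066 for GRIK1, and leaving out an array gave -0.082 to 0.017 for GABRE, -0.050 to 0.20 for GLRA3 and -0.36 to 0.035 for GRIA1. Calls over all probe sets ranged widely over the alternatives: from 10 to 189 between M and P in neurons (78 as reported), 10 to 89 in layers (42), 51 to 512 over both captures (219), 36 to 3699 for neurons against layers in M (2819), 112 to 3725 in P (2682) and 626 to 7405 over both (6355), the lowest with the station block except in layers, where it was without P layer replicate 3. Settings for the related lists and for GLDC were chosen after seeing the data; GLDC was 1.47 with a pseudocount of 1 (adjusted p = 0.117) and kept its value without the filter (adjusted p = 0.145). Signals near the filter limit what can be seen for 14 of the 26 genes.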
